A study of Mus musculus with 9 samples.

Results

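Peaks of open chromatin at 9 genes of the Notch pathway in lung endothelial cells were compared between infant, young adult and mature adult mice. The 9 genes were the receptors Notch1 and Notch4, the ligands Dll4, Jag1 and Jag2, the nuclear DNA-binding partner Rbpj, and the target genes Hes1, Hey1 and Hey2. They were taken from a fixed list of names, which was chosen with earlier results of these data known. The RefSeq table of mouse assembly GRCm38.p6, which is the build mm10, held 21896 protein-coding genes. The assay was ATAC-seq, which tags accessible DNA by means of a transposase, run on murine pulmonary endothelial cells that had been isolated by fluorescence-activated sorting. There were 3 infant, 3 young adult and 3 mature adult libraries, each given as a list of peaks with a chromosome, a start and an end and no height, score or read number. Neither the age in days, the strain, the sex nor the sorting markers are given in the sources used here, and whether each library stands for its own animal is not labelled. The p-values below therefore measure only the spread between these libraries, which may be technical. A peak belonged to a gene when its centre lay inside that gene, and a peak between genes belonged to the closest one, if an end of it was no more than 100 kb away. Peaks whose centre lay inside the gene or within 10 kb of an end were also counted alone. All 9 genes had a mean of at least 1 peak per library and were tested among 14448 such genes. Peaks of the 9 libraries that overlapped were merged into regions, and 122 of the 126907 regions belonged to the 9 genes.

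In Notch signalling a ligand of the Delta-like or Jagged family on one cell binds a receptor on its neighbour, and the receptor is cut so that its intracellular part enters the nucleus. There it joins RBPJ on DNA and turns on genes of the HES and HEY families, which encode transcriptional repressors. In blood vessels the pathway is known for restraining the number of sprouting tip cells through Dll4 and Notch1, and for the arterial identity of endothelium.

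The lists held between 88856 and 94646 peaks in infant, between 67550 and 68366 in young adult and between 59793 and 64208 in mature adult libraries. Sequencing depth is unknown, so a shorter list cannot be told apart from a less deeply sequenced library, and the absence of a peak does not show closed chromatin. Every value is therefore given as a number of peaks and, for the tests, also after scaling to the length of the list. Mean peak width set a pair of adult libraries apart, with 487 bp in young adult replicate 3 and 495 bp in mature adult replicate 1, against 530 to 541 bp in the other 4. Values without this pair are given for calls of peak number within 100 kb and for calls of width for mature adult against infant. The 12 endothelial marker genes, among them Pecam1 and Cdh5, all had peaks, with a sum of 232 to 249 in infant, 207 to 233 in young adult and 193 to 226 in mature adult libraries. The 11 marker genes of mural and smooth muscle cells summed to 58 to 66, 22 to 28 and 22 to 26 peaks at the 3 ages in the same order. The 10 fibroblast marker genes summed to 67 to 75, 25 to 32 and 21 to 23. The 10 epithelial genes summed to 37 to 47, 20 to 29 and 20 to 22, although Sftpc had no peak in any library. The 10 leukocyte genes summed to 26 to 31, 14 to 29 and 12 to 16, although Cd68, Lyz2 and Itgam had none. Mural cells also use Notch signalling. The sums of these marker lists moved beside the numbers below, and their part in the results was not tested. In a peak list, fewer cells with an open region cannot be told apart from a region that is less open in each cell.

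At each of the 7 genes with a listed start site a peak of every library lay over it or at most 196 bp from it. A RefSeq start site was listed for 7 of the genes, and a peak of all 9 libraries lay over that of Notch1, Notch4, Dll4, Hey2 and Rbpj. At Jag1 the nearest peak began 117 to 132 bp upstream of the listed start site, and at Jag2 the listed start site lay 97 to 196 bp from the nearest peak, which covered the upper end of the gene. At Hes1 a peak of all 9 libraries covered the lower end of the gene, and at Hey1 one covered the upper end. The region at Hey1 is given by the rule to LOC115489673, a predicted gene that overlaps this end, so it was not counted for Hey1. It covered 1465, 1480 and 1499 bp in infant, 1445, 1430 and 1414 bp in young adult and 1414, 1431 and 1455 bp in mature adult libraries.

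The 250 bases before the start site are printed for Hey2 and Rbpj, whose start regions were open at every age and hold the core of the RBPJ binding sequence, and for Dll4, whose region holds the class C site, a sequence bound by HES proteins. The sequences are those of RefSeq on GRCm38.p6, written 5′ to 3′ toward the gene, and capitals mark the matches.
Hey2, chr10:30842784-30843033, minus strand: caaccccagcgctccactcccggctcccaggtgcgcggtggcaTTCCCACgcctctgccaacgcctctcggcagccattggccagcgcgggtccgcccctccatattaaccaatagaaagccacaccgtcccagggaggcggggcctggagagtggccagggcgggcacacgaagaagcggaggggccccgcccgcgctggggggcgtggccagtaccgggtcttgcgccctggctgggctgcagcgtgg
Rbpj, chr5:53590096-53590345, plus strand: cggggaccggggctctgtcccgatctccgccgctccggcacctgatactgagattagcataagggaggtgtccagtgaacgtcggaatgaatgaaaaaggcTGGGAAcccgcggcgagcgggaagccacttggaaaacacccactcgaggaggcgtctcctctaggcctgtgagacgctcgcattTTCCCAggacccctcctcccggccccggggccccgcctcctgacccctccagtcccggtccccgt
Dll4, chr2:119325534-119325783, plus strand: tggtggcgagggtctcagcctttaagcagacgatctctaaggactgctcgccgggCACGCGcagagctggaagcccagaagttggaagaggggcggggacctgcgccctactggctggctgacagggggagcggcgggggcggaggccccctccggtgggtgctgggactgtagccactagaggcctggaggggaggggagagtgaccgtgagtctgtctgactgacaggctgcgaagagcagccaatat
Of 32851 RefSeq promoters of the same length, 21.6% held TGGGAA on either strand and 5.42% held the longer GTGGGAA, of which TGGGAA is a part. Hey2 held the longer form on the other strand, from base 207 to base 201 before the start. Rbpj held TGGGAA at bases 149 to 144 as printed and at bases 65 to 60 on the other strand. The class C site, CACGCG, was in 7.62% of all promoters and, of the 7 genes with a sequence, in Dll4 at bases 195 to 190 and in Jag1 at bases 171 to 166 and 249 to 244. Neither the E box CACGTG, in 6.02% of all promoters, nor the ETS core GGAAGT, in 19.7%, was found before the start of these 7 genes. A match is a description of letters and does not show binding.

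The receptor gene Notch1 had more peaks in infant than in adult libraries. It lies on chromosome 2 at 26457902-26503822 on the minus strand. Its peaks numbered 21, 21 and 21 in infant, 18, 17 and 14 in young adult and 15, 14 and 15 in mature adult libraries. The adult and the infant libraries did not overlap, while the adult lists were shorter. The share of all genes without such overlap is not given, here or for the genes below. A lack of overlap is therefore a description of the numbers and not a result particular to these genes. After scaling to list length the change was 0.052 ± 0.096 (log2 scale, SE) for young adult against infant and 0.029 ± 0.096 for mature adult against infant, and neither passed the test (limma adjusted p = 0.719 and 0.824). On numbers that were not scaled the fall passed it in both comparisons, with -0.36 (limma adjusted p = 0.0345) and -0.50 (limma adjusted p = 0.00682). The call at Notch1 thus depended on the scaling.

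Within Notch1, 13 of 24 regions were called in all 9 libraries, among them 1 at the start site and 1 inside the gene, 10.6 kb downstream of it, which covered 1136 to 1154 bp in every library. A pair of regions was called in the 3 infant libraries and in no adult one. The wider lay 4.05 kb upstream of the start site, at chr2:26507466-26508278, and covered 742, 812 and 600 bp in the infant libraries. The other, inside the gene at chr2:26502396-26502570, covered 150, 150 and 172 bp.

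Notch4, a receptor gene expressed mostly in endothelium, lies on chromosome 17 at 34564286-34588543 on the plus strand and had few peaks at any age. They numbered 5, 6 and 6 in infant, 4, 5 and 4 in young adult and 5, 4 and 4 in mature adult libraries, and the ages overlapped. Neither the scaled change for young adult against infant (0.031 ± 0.15, SE; limma adjusted p = 0.888) nor that for mature adult against infant (0.14 ± 0.15, SE; limma adjusted p = 0.472) passed the test. When as many of the widest peaks were taken from each library, Notch4 was higher in both comparisons (0.36 and 0.46; limma adjusted p = 0.0314 and 0.00989). The narrowest peak so kept was 299 to 354 bp wide in infant and 150 to 205 bp wide in adult libraries. This setting therefore left out wider peaks from infant than from adult lists. Of the peaks of Notch4 it kept 3 in each infant library, 4 in each young adult and 5, 4 and 4 in mature adult libraries. Of its 7 regions, 4 were called in all 9 libraries, and the region over the start site covered 1255 to 1435 bp.

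Rbpj, which encodes the DNA-binding protein of the pathway, had fewer peaks in adult than in infant libraries. It lies on chromosome 5 at 53555779-53657445 on the plus strand. Its peaks numbered 8, 9 and 9 in infant, 4, 4 and 3 in young adult and 2, 4 and 4 in mature adult libraries, so no adult library reached an infant one. The scaled number fell for young adult against infant (-0.75 ± 0.23 on the log2 scale, SE; limma adjusted p = 0.0374) and for mature adult against infant (-0.81 ± 0.23, SE; limma adjusted p = 0.0239). Both comparisons use the same infant libraries. Without scaling the falls were -1.15 (limma adjusted p = 0.0222) and -1.31 (limma adjusted p = 0.0091). Most of the difference lay far from the gene. Beyond 10 kb there were 5, 6 and 3 peaks in infant, 1, 1 and 0 in young adult and 0, 1 and 1 in mature adult libraries. Within 10 kb of Rbpj there were 3, 3 and 6, then 3, 3 and 3, then 2, 3 and 3, and the scaled change there was 0.0095 ± 0.26 (SE) for mature adult against infant (limma adjusted p = 0.978). The region over both listed start sites covered 1716 to 1898 bp in infant, 1659 to 1706 bp in young adult and 1642 to 1702 bp in mature adult libraries, and it was the only 1 of 11 regions called in all 9. A region 58.5 kb below the gene, at chr5:53496986-53497493, was called in the 3 infant libraries alone, at 490, 272 and 155 bp.

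The size of the fall at Rbpj held better than its call when single libraries were left out. It ranged from -0.83 to -0.64 for young adult and from -0.95 to -0.55 for mature adult against infant. The call for mature adult against infant ended without infant replicate 2 (limma adjusted p = 0.0694) and without infant replicate 3 (limma adjusted p = 0.0679). That for young adult against infant ended in each fit without one infant or young adult library, with limma adjusted p between 0.061 and 0.101. Without the pair of adult libraries with narrow peaks the scaled falls were -0.64 (limma adjusted p = 0.00424) for young adult and -0.55 (limma adjusted p = 0.00582) for mature adult against infant. Both calls ended when every deposited line was counted, repeats included (-0.38 and -0.55; limma adjusted p = 0.283 and 0.103), and when as many of the widest peaks were taken from each library (-0.22 and -0.38; limma adjusted p = 0.76 and 0.445).

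The ligand genes differed among themselves. Dll4, the ligand gene of tip and arterial endothelial cells, lies on chromosome 2 at 119325784-119335666 on the plus strand and held the same 6 regions in every library. Its peaks numbered 6, 6 and 7 in infant and 6 in each of the 6 adult libraries. The seventh infant peak arose because the region over the start site was called as 2 peaks in infant replicate 3. After scaling the number was higher for young adult against infant (0.32 ± 0.082 on the log2 scale, SE; limma adjusted p = 0.019) and for mature adult against infant (0.44 ± 0.082, SE; limma adjusted p = 0.00388). The number of regions was constant while the lists were shorter, and without scaling the change was -0.069 in both comparisons (limma adjusted p = 0.451 and 0.405). Among the same number of widest peaks from each library it was 0.092 (limma adjusted p = 0.796 and 0.753), where 10.2% and 16.6% of all genes passed in either direction for young and mature adult against infant. The call for young adult against infant also ended without infant replicate 1 (limma adjusted p = 0.0548), without infant replicate 2 (limma adjusted p = 0.0642), without young adult replicate 1 (limma adjusted p = 0.0508), and without the narrow-peak pair of adult libraries (limma adjusted p = 0.056). Without that pair the value for mature adult against infant was 0.41 (limma adjusted p = 0.0217). The 6 regions of Dll4 spanned from 11.1 kb upstream of the start site to 12.0 kb downstream of it. The region over the start site covered 810 to 984 bp in infant, 934 to 958 bp in young adult and 885 to 954 bp in mature adult libraries.

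Jag1, a ligand gene of arterial endothelium and smooth muscle, lies on chromosome 2 at 137081451-137116520 on the minus strand. Its peaks numbered 10, 11 and 9 in infant, 7, 7 and 7 in young adult and 7, 7 and 8 in mature adult libraries, without overlap between infant and adult. Without scaling the fall passed the test for young adult against infant (-0.48; limma adjusted p = 0.00848) and for mature adult against infant (-0.42; limma adjusted p = 0.00918), and after scaling neither change did (-0.081 and 0.097; limma adjusted p = 0.5 and 0.396). Within 10 kb the numbers were 5, 6 and 5 in infant, 5, 5 and 5 in young adult and 5, 5 and 6 in mature adult libraries. There the scaled number was higher for young adult against infant (0.30; limma adjusted p = 0.049) and for mature adult against infant (0.50; limma adjusted p = 0.00494), again on near-constant numbers in shorter lists.

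A region of Jag1 stood out by its direction, and it was singled out after its values were seen. Inside the gene, 17.9 kb downstream of the start site at chr2:137098318-137098980, it was called in all 6 adult libraries and in 1 of the 3 infant ones. It covered 639, 646 and 584 bp in young adult and 538, 647 and 636 bp in mature adult libraries, against 0, 303 and 0 bp in infant libraries. As infant replicate 2 had a peak there, the region does not count as open in adults alone, and its width was not tested because the test takes only regions called in all 9 libraries. In the other direction, a region 74.7 kb upstream of the start site, at chr2:137190888-137191463, covered 502, 575 and 496 bp in the infant libraries and was called in no adult one. A second region called in the infant libraries alone, inside Jag1 at chr2:137083077-137083576, covered 499, 246 and 312 bp.

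Jag2, the other Jagged ligand gene, lies on chromosome 12 at 112907803-112929812 on the minus strand. It had 9, 8 and 8 peaks in infant, 7 in each young adult and 6 in each mature adult library, so that the 3 ages did not overlap. Neither scaled change against infant passed the test, with 0.16 ± 0.054 (SE; limma adjusted p = 0.0523) for young adult and 0.071 ± 0.054 (SE; limma adjusted p = 0.326) for mature adult. Unscaled, both falls passed it (-0.23 and -0.44; limma adjusted p = 0.0133 and 0.000708). Inside Jag2, single regions differed in the ages at which they were called. A region at chr12:112912233-112912491, 17.1 kb downstream of the start site, was called in the 3 infant libraries alone. Another at chr12:112914520-112914915, 14.8 kb downstream, covered 395, 349 and 326 bp in infant and 154, 239 and 221 bp in young adult libraries and was called in no mature adult one. It was the only one of the 122 regions with that pattern, which 0.598% of the regions given to any gene had.

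The target gene Hes1 had fewer peaks in adult than in infant libraries. Hes1, which encodes a repressor induced by Notch in many tissues, is a short gene on chromosome 16 at 30065357-30067796, and 40 regions on both sides were given to it. Its peaks numbered 31, 26 and 31 in infant, 16, 18 and 14 in young adult and 12, 15 and 14 in mature adult libraries, and no adult library reached an infant one. The peaks of Hes1 covered 17.9, 15.1 and 15.6 kb in infant, 8.77, 8.89 and 6.81 kb in young adult and 5.76, 7.15 and 6.68 kb in mature adult libraries. The scaled number fell for young adult against infant (-0.44 ± 0.11 on the log2 scale, SE; limma adjusted p = 0.0155) and for mature adult against infant (-0.54 ± 0.11, SE; limma adjusted p = 0.00519). Without scaling the falls were -0.86 (limma adjusted p = 0.00528) and -1.07 (limma adjusted p = 0.00159), and without the narrow-peak pair of adult libraries the scaled falls were -0.36 (limma adjusted p = 0.0359) and -0.48 (limma adjusted p = 0.011). The call for young adult ended without infant replicate 1 or infant replicate 3 (limma adjusted p = 0.0523 each).

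The fall at Hes1 lay in the distant peaks. Beyond 10 kb there were 23, 21 and 25 peaks in infant, 11, 13 and 10 in young adult and 8, 10 and 8 in mature adult libraries. Within 10 kb there were 8, 5 and 6, then 5, 5 and 4, then 4, 5 and 6, with overlap between the ages. There the scaled change turned in sign, to 0.0019 ± 0.18 (SE) for young adult and 0.20 ± 0.18 (SE) for mature adult against infant (limma adjusted p = 0.993 and 0.41). The median scaled change of all genes tested within 10 kb was 0.20 in each comparison, so neither value lay above it. Distant peaks are given to Hes1 because no other protein-coding gene lies closer, and the files do not link them to its transcription.

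Of the 40 regions, 9 were called in all 9 libraries and 5 in the 3 infant libraries alone. Those 5 all lay above the gene, at 16.0, 35.0, 55.0, 56.7 and 92.9 kb. The widest, at chr16:30102194-30103327, covered 1111, 1133 and 871 bp in the infant libraries. A region 68.7 kb below the gene, at chr16:29995998-29997375, was singled out after its values were seen. It covered 1276, 1364 and 955 bp in infant, 0, 726 and 391 bp in young adult and 0, 0 and 0 bp in mature adult libraries, so that the adult ages overlapped, and its width was not tested.

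**Figure D1:**
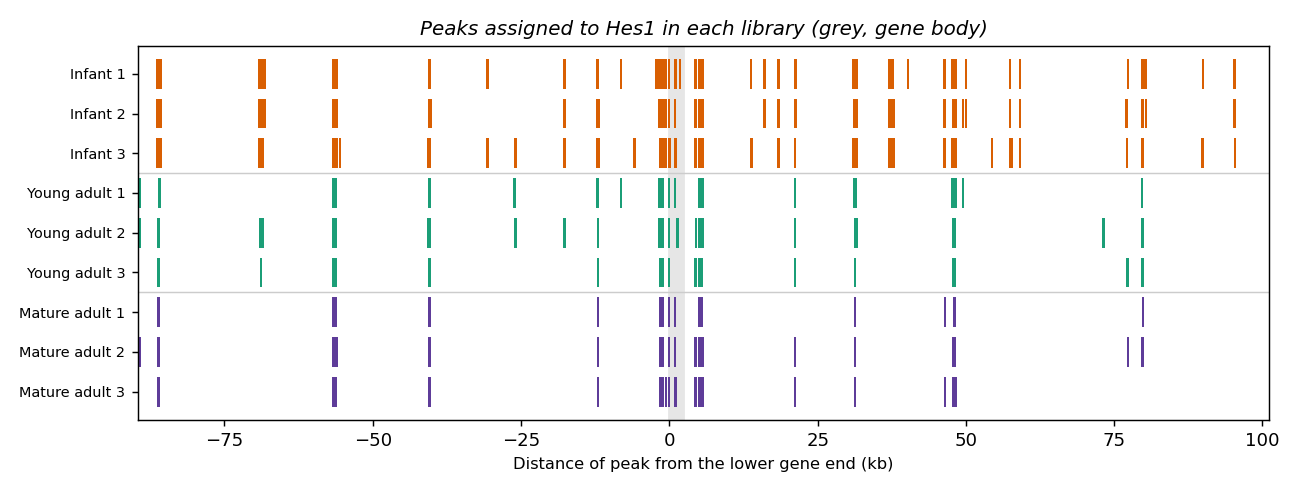
Peaks given to Hes1 in each library, by distance in kb from the lower end of the gene (the gene body is shaded). Each bar is 1 peak, with narrow peaks drawn wider than to scale so that they can be seen, and the rows are the 3 infant, 3 young adult and 3 mature adult libraries. The peaks at the gene recur in every row, while beyond 10 kb there are 21 to 25 peaks in infant rows and 8 to 13 in adult rows.

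Hey1, a target gene that with Hey2 carries Notch signals in vessels, lies on chromosome 3 at 8663359-8667038. The peaks given to it numbered 10, 10 and 7 in infant, 10, 11 and 8 in young adult and 7, 9 and 7 in mature adult libraries, and the ages overlapped. Positions given to Hey1 ended about 0.179 kb inside its upper end, so no peak above the gene was counted. Its regions outside the gene all lay below it, at 20.0 to 43.6 kb. The scaled number was higher for young adult against infant (0.50 ± 0.16 on the log2 scale, SE; limma adjusted p = 0.0496), and for mature adult against infant it did not pass the test (0.31 ± 0.16, SE; limma adjusted p = 0.171). The call at Hey1 depended on the setting. When as many of the widest peaks were taken from each library, Hey1 was higher for young adult (0.87; limma adjusted p = 0.00691) and for mature adult against infant (0.75; limma adjusted p = 0.00985). The narrowest width kept was larger in infant libraries, as given for Notch4. Of the peaks of Hey1, 5, 4 and 4 were kept in infant, 8, 9 and 8 in young adult and 7, 9 and 7 in mature adult libraries. Without the narrow-peak pair of adult libraries the change was 0.62 for young adult (limma adjusted p = 0.0424) and 0.34 for mature adult against infant (limma adjusted p = 0.185). The call for young adult ended elsewhere: without scaling the change was 0.10 (limma adjusted p = 0.826), and with predicted LOC genes left out of the table, an alternative chosen after seeing the data, it was 0.050 (limma adjusted p = 0.715). It held in 1 of the 9 fits that each left out a library, that without young adult replicate 3, and ended in the other 8 with limma adjusted p up to 0.135. With genes of fewer than 1 peak on average kept in the fit it also ended (limma adjusted p = 0.0558). Between 5 and 9 of the peaks of Hey1 in a library lay beyond 10 kb, and 5 of its 10 regions were called in all 9 libraries.

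Hey2, expressed in arterial endothelium, lies on chromosome 10 at 30832359-30842783 on the minus strand and had 4, 3 and 4 peaks in infant and 3 in each of the 6 adult libraries. Its scaled changes were 0.13 ± 0.1 (SE) for young adult and 0.23 ± 0.1 (SE) for mature adult against infant and did not pass the test (limma adjusted p = 0.377 and 0.0989). Of its 4 regions 3 were called in all 9 libraries. The fourth, 1.14 kb upstream of the start site, was called in infant replicates 1 and 3 alone, at 164 bp each.

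**Figure D2:**
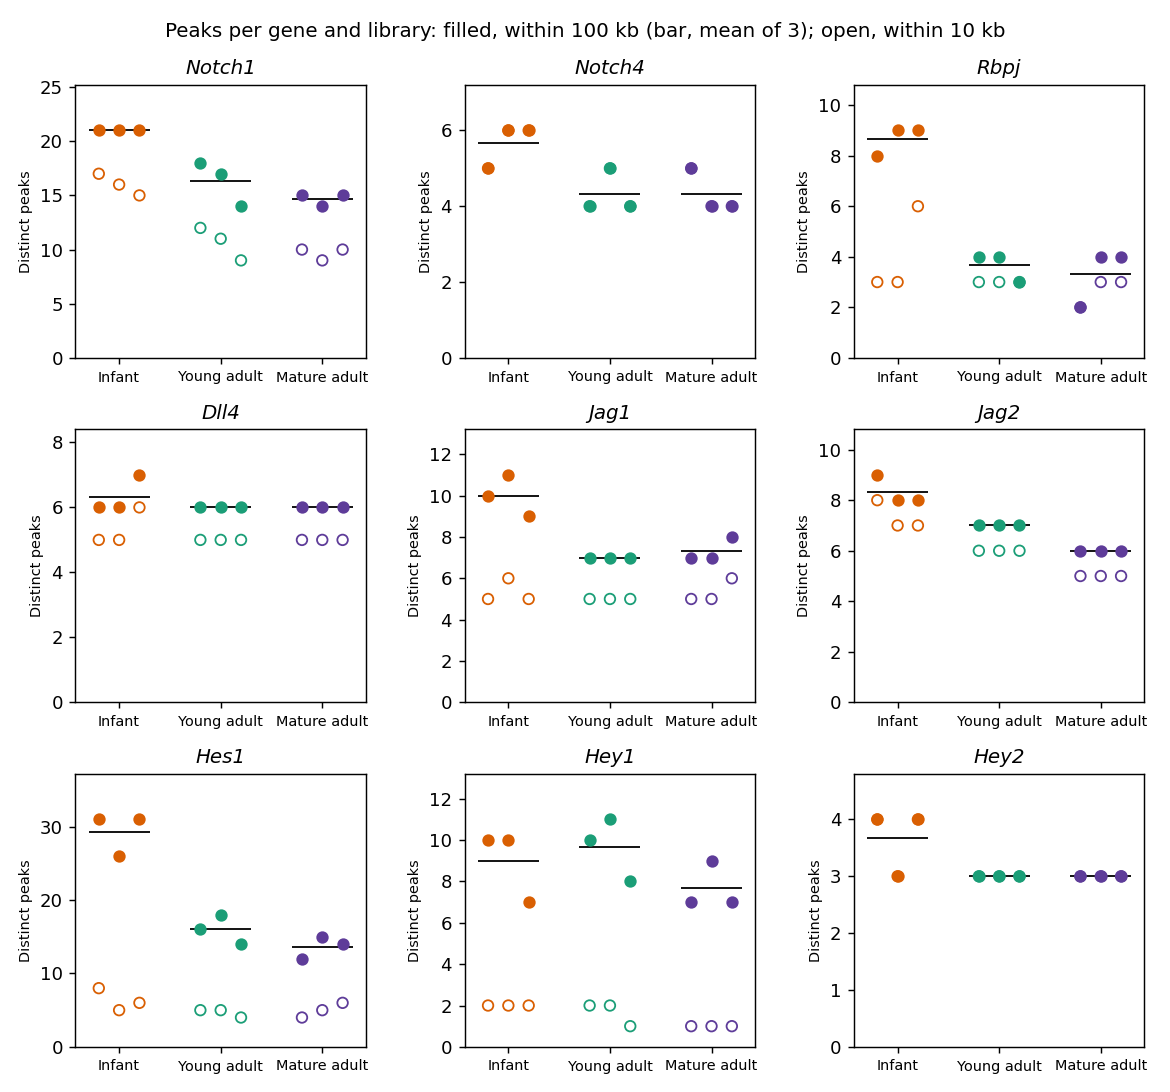
Distinct peaks per library given to each of the 9 genes, at the 3 ages. Filled points count all peaks within 100 kb, with a bar at the mean of 3 libraries, and open points count those within 10 kb. For Notch1, Rbpj, Jag1, Jag2 and Hes1 the filled points of adults lie below all those of infants, while for Dll4 they lie at 6 in every adult library. The numbers are not scaled, the adult lists were shorter, and the share of all genes with adult points below all infant ones is not given.

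The counts of the 9 genes called are set beside the share of all genes called in the same way, and the difference from that share was not tested. For young adult against infant, 2 of the 9 (Dll4 and Hey1) were higher and 2 (Hes1 and Rbpj) lower after scaling, where 25.6% of the 14448 genes tested were higher and 9.34% lower. For mature adult against infant 1 (Dll4) was higher and 2 (Hes1 and Rbpj) lower, against 30.0% higher and 13.8% lower of all genes. The median scaled change of the 9 genes was 0.052 and 0.097, against 0.13 and 0.14 over all genes tested. Without scaling the split turned: 0 of 9 were higher and 5 (Notch1, Jag1, Jag2, Hes1 and Rbpj) lower in both comparisons, against 1.13% higher and 17.5% lower of all genes for young adult against infant, and 1.44% higher and 29.4% lower for mature adult against infant. There the medians were -0.35 and -0.42 for the 9 genes, against -0.25 and -0.31 over all genes. At an unadjusted p under 0.05, none was higher and 7 were lower in both of these unscaled comparisons. Of all genes 2.56% and 2.68% were higher there, and 30.7% and 39.5% lower.

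Within 10 kb, 2 of the 9 genes (Dll4 and Jag1) were higher and 0 lower in both comparisons with infant libraries, against 29.5% higher and 8.07% lower of 13761 genes tested for young adult and 34.2% higher and 12.2% lower for mature adult. At an unadjusted p under 0.05 none of the 9 was lower there either, where 11.1% of genes were lower for young adult and 14.7% for mature adult. Between mature and young adult libraries 0 of the 9 genes passed the limma test on scaled numbers, with limma adjusted p between 0.291 and 0.885, and 0 had an unadjusted p under 0.05. Of all genes 0.844% passed, 122 in number, and 1393 had an unadjusted p under 0.05. By limma on unscaled numbers 0 of the 9 also passed between the adult ages, where 0.927% of all genes passed. There 1 of the 9 had an unadjusted p under 0.05, as did 10.7% of all genes. Within 10 kb 0 of the 9 passed, where 0.894% of genes passed. An unadjusted p under 0.05 was held there by 0 of the 9 and by 23.7% of genes.

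**Figure D3:**
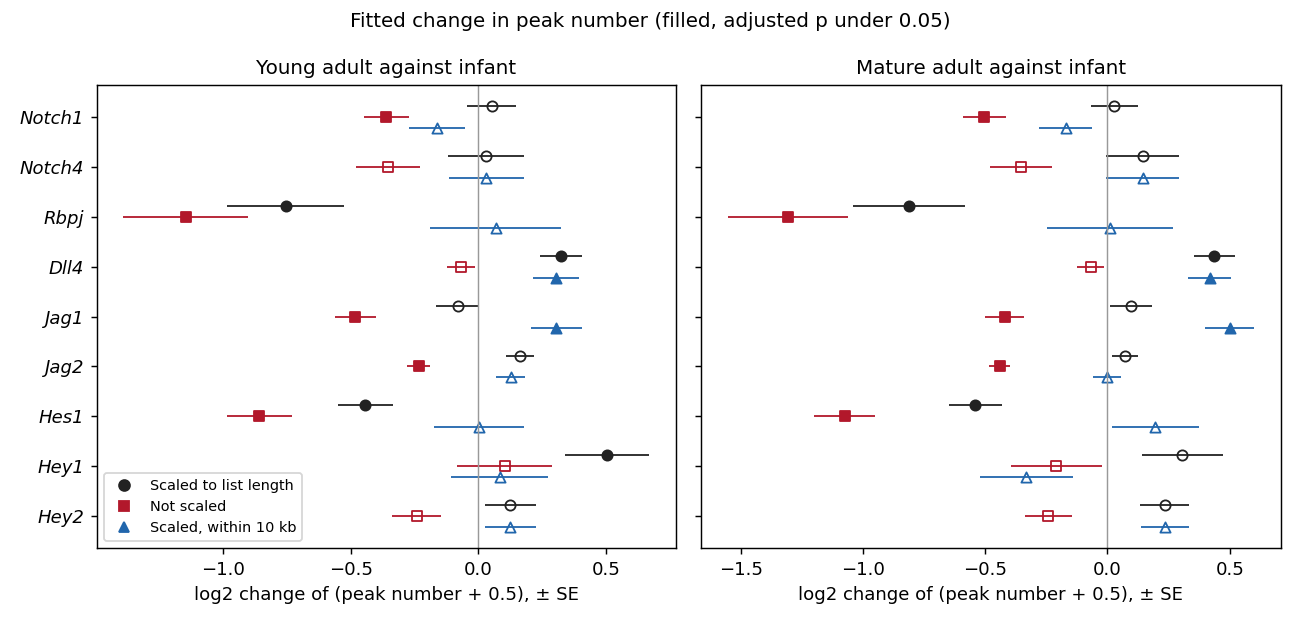
Fitted change in the number of peaks for each gene on the log2 scale with its SE, for young adult against infant (left) and mature adult against infant (right). Circles are numbers scaled to list length, squares numbers not scaled and triangles scaled numbers within 10 kb, and filled symbols have a limma adjusted p under 0.05. Hes1 and Rbpj lie left of 0 with and without scaling and near 0 or to the right within 10 kb.

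Regions called in every library were the most frequent pattern at the 9 genes. Of the 122 regions 53 were called in all 9 libraries, or 43.4%, against 34.6% of the 111761 regions given to any gene. A further 11, or 9.02%, were called in the 3 infant libraries and in no adult one, against 9.46% of all such regions, so that the share was near the background. They belonged to Hes1 (5), Notch1 (2), Jag1 (2), Jag2 (1) and Rbpj (1). Beyond 10 kb lay 7 of the 11, where 27.5% of all regions of this pattern given to a gene did. All 5 of Hes1 were among the 7, and peaks up to 100 kb below and 94.3 kb above Hes1 were given to it. No region of the 9 genes was called in the 6 adult libraries and in no infant one, a pattern held by 0.716% of all regions. In 14 of the 122 regions at least 1 library had more than 1 peak, so numbers of peaks also count how a region was divided. Counted as regions, Hes1 had 31, 25 and 30 in infant, 16, 18 and 14 in young adult and 12, 15 and 13 in mature adult libraries. Rbpj had 8 in each infant library, then 3, 3 and 2, then 1, 3 and 3.

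**Figure D4:**
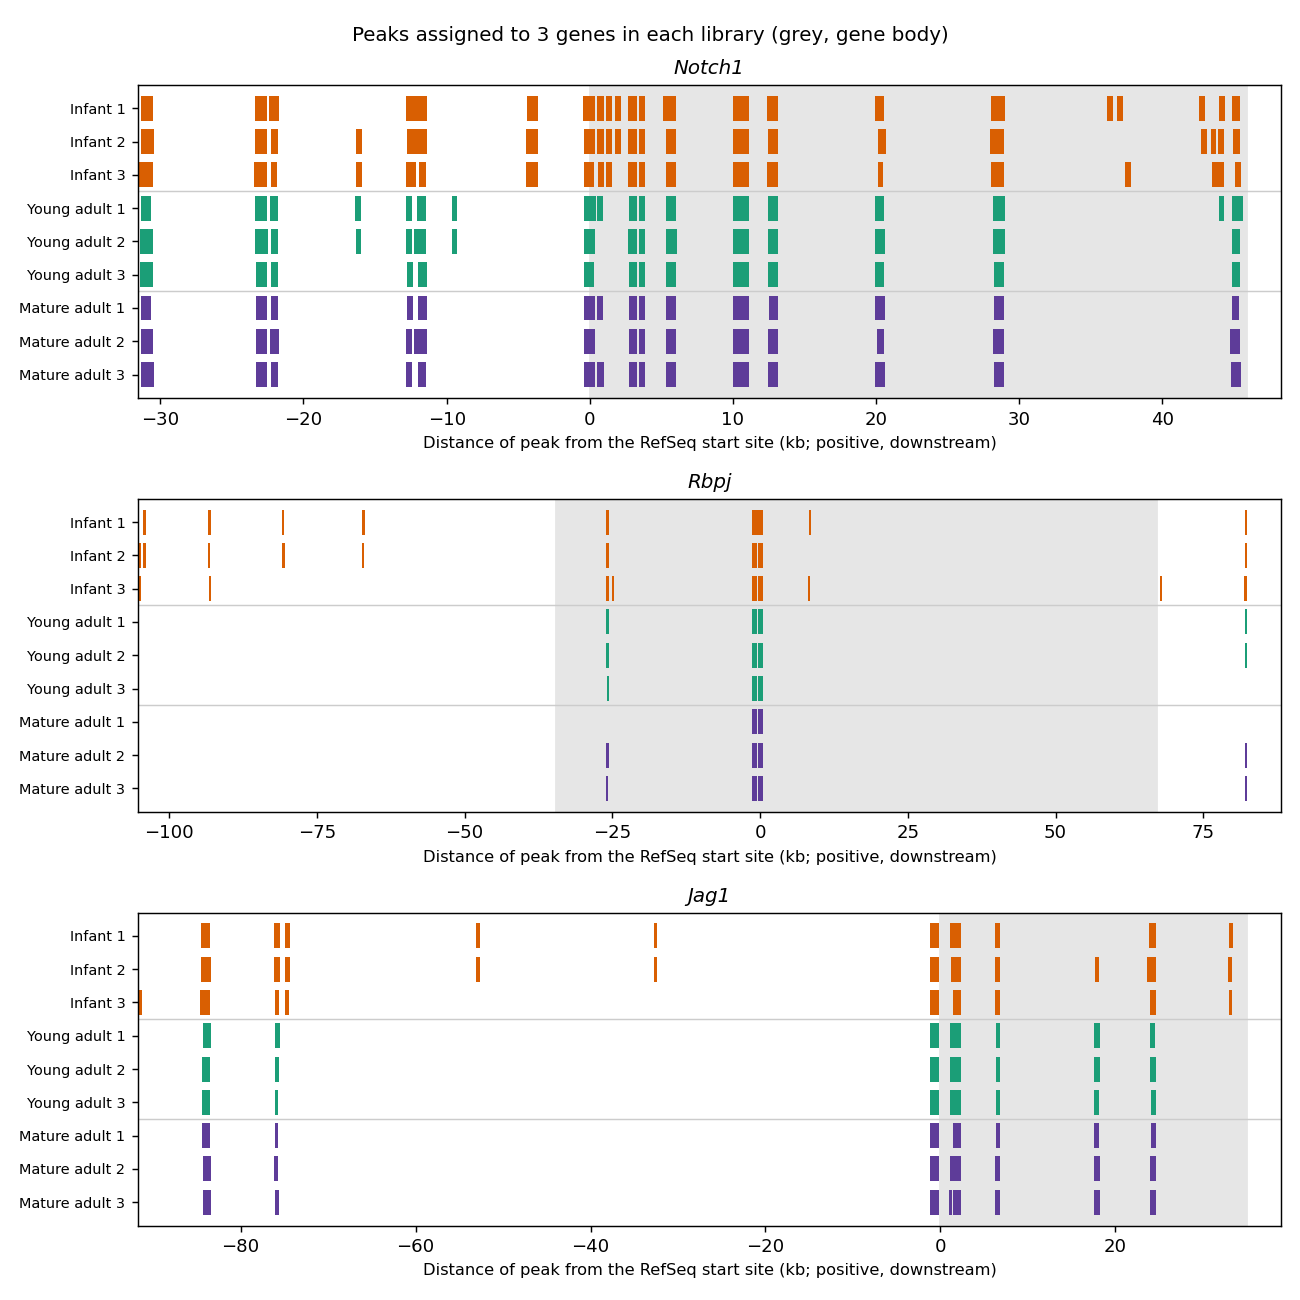
Peaks given to Notch1, Rbpj and Jag1 in each library, by distance in kb from the RefSeq start site, with positive values downstream and the gene body shaded. Each bar is 1 peak, with narrow peaks drawn wider than to scale so that they can be seen, in rows for the 3 infant, 3 young adult and 3 mature adult libraries. The peaks at the start sites recur in every row, and the region 17.9 kb downstream of the Jag1 start has a peak in all 6 adult rows and in 1 infant row.

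Regions called in all 9 libraries could also be compared in width, as the number of bases covered by peaks. For mature adult against infant 11 of the 53 regions were narrower and 1 was wider, against 16.4% narrower and 1.92% wider of 41144 regions tested. For young adult against infant 4 were narrower and 1 wider, against 5.80% and 1.12%. Between mature and young adult libraries 0 of the 53 passed the limma test, 3 had an unadjusted p under 0.05, and 0.0972% of all regions passed, with 9.49% at an unadjusted p under 0.05. The median change over all regions was -0.19 for mature adult and -0.13 for young adult against infant. When each library was centred on its median width, 13 regions were wider and 4 narrower for mature adult against infant, where 14.0% of all regions were wider and 6.83% narrower. Centred in this way, the same 53 regions gave 1 wider and 2 narrower for young adult against infant, where 3.10% and 2.10% of all regions were. Centred values therefore stand beside the changes for mature adult against infant below.

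The largest changes in width were at Hes1. A region 86.1 kb below the gene, at chr16:29978748-29979842, covered 1094, 1094 and 1063 bp in infant, 539, 336 and 279 bp in young adult and 239, 282 and 325 bp in mature adult libraries. It was narrower for mature adult against infant by -1.95 ± 0.23 on the log2 scale (SE; limma adjusted p = 0.00293; centred -1.68). A region 28.9 kb above Hes1, at chr16:30096145-30097239, covered 1092, 945 and 999 bp in infant, 772, 693 and 437 bp in young adult and 352, 406 and 400 bp in mature adult libraries (mature adult against infant -1.39 ± 0.2, SE; limma adjusted p = 0.00511; centred -1.12). Next to the gene, 1.15 kb below it at chr16:30063478-30064929, the width was 1442, 1402 and 1357 bp in infant, 1003, 1057 and 989 bp in young adult and 965, 960 and 1116 bp in mature adult libraries. That change was -0.47 ± 0.065 (SE; limma adjusted p = 0.00465) for mature adult against infant and, centred, -0.19 (limma adjusted p = 0.0768), which did not pass. In these 3 regions no adult library was as wide as an infant one. They were chosen by the test on the same widths, so the lack of overlap adds no support. The region over the lower end of Hes1 covered 427 to 532 bp, and its width did not pass the test.

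Inside Hey1, at chr3:8664584-8665167, the width was 551, 418 and 425 bp in infant, 245, 243 and 223 bp in young adult and 226, 263 and 234 bp in mature adult libraries. It was narrower for young adult (-0.96 ± 0.14, SE; limma adjusted p = 0.00836; centred -0.76) and for mature adult against infant (-0.94 ± 0.14, SE; limma adjusted p = 0.00537; centred -0.66). At Jag2 a region inside the gene, 0.737 kb downstream of the start site, covered 702, 793 and 537 bp in infant, 479, 463 and 440 bp in young adult and 408, 366 and 418 bp in mature adult libraries (mature adult against infant -0.75, limma adjusted p = 0.014; without infant replicate 1, limma adjusted p = 0.0557). Centred, its value was -0.48 (limma adjusted p = 0.0581), which did not pass. Another of Jag2, 12.6 kb below the gene, gave -1.06 (limma adjusted p = 0.0243; centred -0.79), a call that ended without infant replicate 1, infant replicate 2 or mature adult replicate 1 (limma adjusted p up to 0.0854) and without the narrow-peak pair of adult libraries (limma adjusted p = 0.0804). Inside Notch1, 28.5 kb downstream of the start site, the width was 980, 1008 and 950 bp in infant, 813, 813 and 700 bp in young adult and 721, 788 and 733 bp in mature adult libraries (mature adult against infant -0.39, limma adjusted p = 0.012; centred -0.12, limma adjusted p = 0.238). Without the narrow-peak pair, the changes for mature adult against infant were -1.84, -1.33 and -0.44 at Hes1 in the order above, -0.89 inside Hey1, -0.77 inside Jag2 and -0.37 at this Notch1 region, and all 6 passed the limma test.

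The remaining calls of width were weaker. Against infant libraries, mature adult libraries were narrower 12.1 kb and 23.0 kb upstream of the Notch1 start (-0.57 and -0.20; limma adjusted p = 0.0475 each), 84.0 kb upstream of the Jag1 start (-0.25; limma adjusted p = 0.0294) and 23.0 kb below Hey1 (-0.29; limma adjusted p = 0.0326). The only region that was wider lay inside Notch1, 3.65 kb downstream of the start site, and covered 253, 266 and 221 bp in infant, 344, 349 and 330 bp in young adult and 315, 318 and 316 bp in mature adult libraries (mature adult against infant 0.36, limma adjusted p = 0.0449). Centred, the first 4 did not pass (-0.29, 0.077, 0.024 and -0.019), and that of the wider region did (0.64, limma adjusted p = 0.0145). Without the narrow-peak pair none of the 5 passed (limma adjusted p between 0.0509 and 0.0854). Merging peaks up to 200 bp apart ended the calls at 23.0 kb upstream and 3.65 kb downstream of the Notch1 start (-0.10 and 0.069), and taking as many of the widest peaks from each library ended that at Hey1 (-0.092). Leaving out single libraries ended these calls in 7, 8, 5, 5 and 8 of 9 fits in the order given. At 12.1 kb upstream of Notch1 the fits without young adult replicate 3 and without mature adult replicate 2 kept the call, and at 23.0 kb upstream and at 3.65 kb downstream only the fit without young adult replicate 3 did. The call at Jag1 ended without any infant library and without mature adult replicates 1 and 2, and that at Hey1 without infant replicates 1 and 3 and without any mature adult library. None of the regions over the start sites of Notch1, Notch4, Dll4, Hey2 and Rbpj passed this test, while centred widths of Notch4, Dll4 and Hey2 there were wider for mature adult against infant (0.25, 0.29 and 0.46; limma adjusted p = 0.0261, 0.0422 and 0.0124).

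**Figure D5:**
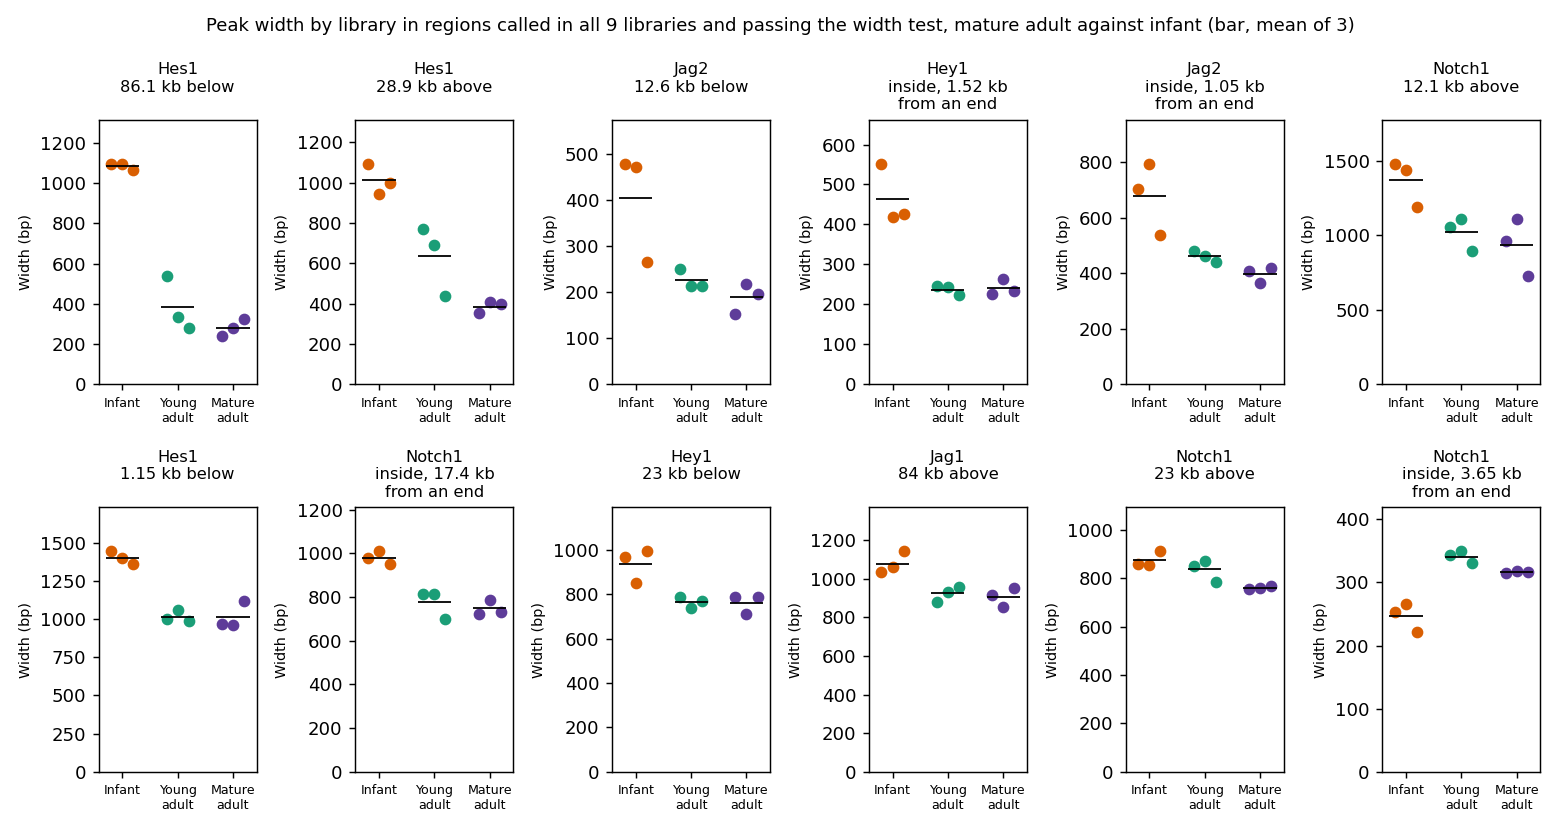
Bases covered by peaks in each library for the 12 regions of these genes whose width passed the test for mature adult against infant, by age, with a bar at the mean of 3 libraries. All 12 regions were called in all 9 libraries, and above and below mean toward higher and lower coordinates than the gene. In 11 panels mature adult libraries are narrower on average than infant ones, and in that of Notch1 at 3.65 kb they are wider.

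Other genes of the pathway were read from a list of 53, of which 49 had enough peaks to be tested and Ncstn, a gamma-secretase subunit gene, had no peak. After scaling 11 were higher and 5 lower for young adult against infant, and 15 were higher and 7 lower for mature adult against infant, with 0 and 0 between the adult ages by limma. As shares of the 49 these were 22.4% higher and 10.2% lower, then 30.6% higher and 14.3% lower, beside the 25.6%, 9.34%, 30.0% and 13.8% of all genes given above. Without scaling the counts were 0 higher and 9 lower for young adult and 0 higher and 16 lower for mature adult against infant. Of all genes 1.13% were higher and 17.5% lower, then 1.44% higher and 29.4% lower, in the same order. The 4 genes with the smallest limma adjusted p among those higher after scaling all had constant numbers: Dlk2, Kat2a and Psenen had 1 peak in every library (limma adjusted p = 0.000135 each), and Poglut1 had 2 (limma adjusted p = 0.000376). Psenen encodes a subunit of the gamma-secretase that cuts the receptor, and Poglut1 an enzyme that adds glucose to it. The 4 lower genes with the smallest limma adjusted p were Dll3, Dlk1, Aph1c and Rbpjl.

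Dll3, a ligand gene that acts within the cell, had 3, 3 and 2 peaks in infant, 1, 1 and 0 in young adult and 0, 0 and 0 in mature adult libraries (mature adult against infant, limma adjusted p = 0.00286). Dlk1, an atypical ligand gene, had 8 in each infant library, then 3, 1 and 2, then 1, 1 and 2 (limma adjusted p = 0.00356). Aph1c, a gamma-secretase subunit gene, had 3, 2 and 3 in infant and 1 in each adult library (limma adjusted p = 0.00363). Rbpjl, a gene related to Rbpj, had 4, 4 and 3, then 2, 1 and 1, then 1, 0 and 0 (limma adjusted p = 0.00895). In each of these 4 no adult library reached an infant one. They were chosen by p on the same numbers, so the lack of overlap adds no support. Among the other receptors, singled out after their values were seen, Notch2 had 12, 10 and 13 peaks in infant, 4, 5 and 4 in young adult and 4, 4 and 6 in mature adult libraries (mature adult against infant -0.74, limma adjusted p = 0.0111). Notch3, a receptor gene of mural cells, had 8, 9 and 8, then 3, 4 and 0, then 2, 2 and 2 (limma adjusted p = 0.201), and Heyl, a target gene also known from mural cells, had 8, 7 and 5, then 2, 1 and 0, then 1, 1 and 0 (limma adjusted p = 0.0289). Notch3 and Heyl are among the mural marker genes, of which 6 of 10 tested were lower and 1, Myh11, was higher for mature adult against infant after scaling. By the same test 9 of 12 endothelial marker genes were higher and 0 lower, and of 8 fibroblast marker genes 0 were higher and 4 lower. Of all genes 30.0% were higher and 13.8% lower. The part of mural cells in the numbers of the pathway genes was not tested.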

How the data were processed

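ATAC-seq peak lists of 9 libraries of sorted mouse lung endothelial cells were used. The deposited columns hold a chromosome, start and end, per the file headers, and no count, signal or score. Per the submitters' processing notes, cutadapt, Bowtie2 and Picard were used and the build was mm10, without versions; nothing used here names the peak caller, a threshold or a transposase shift. Whether starts count from 0 or 1 is not stated, so positions may be off by 1 bp. Lists repeat intervals over 1 to 14 rows, and each interval was counted once.

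Genes came from RefSeq (GRCm38.p6), which gives no exons here. Numbers of peaks per gene, scaled to the mean list length, and widths in shared regions were tested as log2 values, for numbers as log2(number + 0.5), with limma 3.58.1 (R 4.3.3; moderated test with trend, all 9 libraries in 1 fit, Benjamini-Hochberg over all genes or regions, threshold 0.05). On this scale changes are understated where peaks are few, and constant numbers leave little spread, which gives low p-values to small changes. The fits were tested on simulated data, with numbers drawn in proportion to list length and widths without a general shift between ages. Such data cannot test whether the scaling or the centring is right for these libraries. Replicate numbers were not used to pair libraries in the main fits, and the labels state no pairing. The 9 genes and the lists were chosen with earlier results of these data known. Named genes were all 9, at most 4 further pathway genes per direction by adjusted p, start-site regions and regions of 1 age; other regions, and further genes marked so, were chosen after their values were seen. Markers of lymphatic, arterial and venous endothelium gave 32 to 35, 70 to 81 and 58 to 60 peaks in infant, 20 to 22, 52 to 66 and 34 to 39 in young adult, and 21 to 27, 50 to 56 and 28 to 39 in mature adult libraries. By infant, young adult and mature adult age, the sums of the 10 epithelial genes were 37 to 47, 20 to 29 and 20 to 22, and those of the 10 leukocyte genes 26 to 31, 14 to 29 and 12 to 16. Python 3.11.15, numpy 2.4.6, pandas 2.3.3 and matplotlib 3.10.9 were used for the rest.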

Additional observations from a re-analysis of the deposited data

How the results depend on the processing

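Depth is unknown, so list length is the only measure of it, and unscaled numbers gave 2690 genes for young adult against infant in place of 5053. Taking as many of the widest peaks from each library gave 1393 genes for young adult and 2268 for mature adult against infant (6339 as reported), and rows as deposited gave 2353 for young adult. Leaving out the narrow-peak pair of adult libraries gave 558 genes for mature against young adult in place of 122, and 491 regions by width in place of 40. Leaving out single libraries gave 98 to 424 genes for mature against young adult, 1171 to 3325 regions for young adult and 3176 to 9312 for mature adult against infant by width, and 0 to 514 regions for mature against young adult. Same-numbered libraries deviated together with correlations between -0.167 and 0.166, and not every library correlated best with its own number. With 3 libraries per age such correlations cannot decide whether the numbers pair libraries, and the labels do not say. With a replicate block 65 genes were called for mature against young adult, and by width 1635 regions in place of 2848 for young adult against infant and 0 for mature against young adult. The block also brought Hey1 for mature adult against infant past the threshold (limma adjusted p = 0.0295) and took Rbpj for young adult out (limma adjusted p = 0.0508).

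Signs turned as follows, and the cause was not tested. Unscaled, for young adult against infant Notch1 was -0.36, Notch4 -0.35, Dll4 -0.069, Jag2 -0.23 and Hey2 -0.24. For mature adult against infant Notch1 was -0.50, Notch4 -0.35, Dll4 -0.069, Jag1 -0.42, Jag2 -0.44, Hey1 -0.21 and Hey2 -0.24. Within 10 kb, for young adult against infant Notch1 was -0.16, Jag1 0.30, Hes1 0.0019 and Rbpj 0.069. For mature adult against infant Notch1 was -0.17, Jag2 -0.0015, Hey1 -0.33, Hes1 0.20 and Rbpj 0.0095, and for mature against young adult Hes1 was 0.19. By rows as deposited, Jag1 was 0.46 for young adult against infant, and for mature against young adult Notch1 was 0.12, Jag1 -0.20 and Jag2 0.11. Among an equal number of widest peaks, for mature adult against infant Notch1 was -0.032, Jag1 -0.060 and Jag2 -0.14. With LOC genes left out, added after seeing the data, Hey1 was -0.13 for mature adult against infant. Without the narrow-peak pair, Notch1 was -0.017 for mature adult against infant, and for mature against young adult Notch4 was -0.058 and Rbpj 0.088. Centred widths were 0.077 at 23.0 kb upstream of Notch1 and 0.024 at 84.0 kb upstream of Jag1. Leaving out single libraries, Notch1 ranged from -0.021 to 0.15 for young adult against infant, from -0.017 to 0.082 for mature adult against infant and from -0.12 to 0.049 for mature against young adult. Notch4 ranged from -0.072 to 0.087 for young adult against infant and from -0.013 to 0.21 for mature against young adult, where Rbpj ranged from -0.19 to 0.21.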

Other observations

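Genes read beside Notch in vessels gave a mixed picture. Of 11 such genes, 3 were higher (Nrp1, Unc5b and Flt4) and 3 lower (Gja5, Cxcr4 and Nr2f2) for mature adult against infant after scaling (limma adjusted p between 0.00268 and 0.0288), and none between the adult ages. Each 3 was 27.3% of the 11, where 30.0% of all genes were higher and 13.8% lower. Between the adult ages 0.844% of all genes passed. Gja5, a connexin gene of arterial endothelium, had 11, 9 and 10 peaks in infant, 5, 6 and 5 in young adult and 5 in each mature adult library. Cxcr4, a chemokine receptor gene of tip cells, had 16, 16 and 15 in infant, 13, 10 and 10 in young adult and 7 in each mature adult library. Nr2f2, a regulator of venous identity, had 15, 14 and 13, then 6, 8 and 6, then 3, 7 and 6. Efnb2, an arterial ephrin gene, had 16, 19 and 16, then 17, 16 and 12, then 13, 14 and 16, and its ages overlapped (limma adjusted p = 0.14). Without scaling 0 of the 11 were higher and 6 lower for mature adult against infant, where 1.44% of all genes were higher and 29.4% lower. Within 10 kb 4 were higher and 0 lower, where 34.2% of genes were higher and 12.2% lower. Gja5, Cxcr4 and Nr2f2 were thus not called there (-0.10, -0.10 and -0.21; limma adjusted p between 0.215 and 0.589).

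The genes whose scaled numbers over the 9 libraries were most like those of each of the 9 genes were found among 3801 genes with a mean of at least 5 peaks, by the root mean square difference on the log2 scale after each gene was centred on its own mean. Hes1 was nearest to Ak8 (0.074) and Fbln2 (0.085), Rbpj to Sptb (0.128) and Grk3 (0.131), Notch1 to Glis2 (0.0625) and Limch1 (0.0668), and Jag2 to Slit3 (0.0439) and Dusp1 (0.0589). Dll4 was nearest to Acadl (0.0124) and Fzd6 (0.0555), Jag1 to Cyth4 (0.07) and Trerf1 (0.0732), and Notch4 to Gm46353 (0.0809) and Nynrin (0.0925). Hey1 was nearest to Mtm1 (0.0871) and Sergef (0.0899), and Hey2 to Prelp (0.0376) and Ttyh3 (0.0543).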
